A study of Mus musculus with 18 samples.

Results

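The control libraries of the series compare the adult mouse retina with 661W cells, a mouse line that is used as a stand-in for photoreceptors. They are the 9 libraries of 18 in which eGFP, and not normoxia-stable *Hif1a*, had been delivered. The 5 retina libraries came from mice injected subretinally between postnatal day 29 and 32 with an AAV2(QuadYF+TV;7m8)/2 vector that carried eGFP under the mOP promoter, which is active in rods only, and the retinas were taken at 3 weeks post injection (wpi). The sample labels give these mice as C57BL/6J, whereas the methods of the study name 129S6 mice. The 4 cell libraries came from 661W cells, which were grown in medium with serum, transfected with a plasmid that drives eGFP from the ubiquitous CMV promoter and harvested after 20 h. The labels do not say whether the 4 cell libraries came from independent cultures, so the spread between them may be technical. Tissue against culture, virus against plasmid and 3 weeks against 20 h all separate the same libraries, and their parts in any difference cannot be told apart. The retina is a mixture of cell types, and in such bulk RNA fewer cells of a type and less RNA per cell cannot be told apart.

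Rods and cones detect light with an opsin in a stacked outer segment. The activated opsin switches on a transducin, the transducin activates a phosphodiesterase, and the drop in cGMP closes a cation channel, after which a kinase and an arrestin shut the opsin off. The homeobox factors OTX2 and CRX start and maintain this program, and NRL with NR2E3 sets the rod fate. Photoreceptors do not divide. The 661W line was derived from retinal tumours of mice with a transgene for SV40 T antigen under a promoter of the interphotoreceptor retinoid-binding protein gene (*Rbp3* in the mouse). T antigen binds the p53 and retinoblastoma proteins. Sequences of T antigen and of eGFP were not in the annotation and were not measured. The comparison addressed how much of the photoreceptor program the cells carried, and which retinal, glial, fibroblast-like and cell division genes they expressed in its place.

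The tissues differed at most genes. The retina libraries held between 12898220 and 16167522 counts and the cell libraries between 13424326 and 17051276, and 3 counts, taken here as the limit of detection, were worth between 0.170 and 0.240 CPM (counts relative to the library total multiplied by its TMM factor). This limit and all intervals of counts cover counting error only. Of 19731 genes tested, 9017 (45.7%) were called higher in the retina and 6980 (35.4%) higher in the cells. A call needed an absolute log2FC (log2 of retina over cells) of more than 0.5 and a limma adjusted *p* below 0.05. The median log2FC of all tested genes was 0.26. Beyond a log2FC of 5, 2960 genes stood higher in the retina and 721 in the cells. For 48.5% of the tested genes every retina library lay above every cell library, and for 38.9% every retina library lay below, so a call alone says little about a gene list, and lists are described by their counts and medians. Spearman correlations of the gene levels, given as a description over libraries that share an annotation, lay between 0.982 and 0.994 among retinas, between 0.994 and 0.996 among cell libraries and between 0.544 and 0.574 across the groups. When the libraries were scaled on 20 housekeeping genes instead of all genes, the median of all genes moved by 0.65 and the calls became 11267 higher in the retina and 4664 higher in the cells, so 70.7% instead of 56.4% of the calls favoured the retina. Without any scaling beyond library totals the median moved by -0.11.

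The libraries of a group were not all alike. Retina libraries 1 and 2 held 19492 and 28595 counts of the X inactivation transcript *Xist* and libraries 3 to 5 held 1 to 3, with the reverse for Y chromosome genes. The cell libraries formed pairs. The median squared difference between libraries 1 and 2 was 1.58 times, and that between libraries 3 and 4 was 1.47 times, the sampling noise, whereas the other pairs differed by 3.61 to 3.82 times that noise. No pair was within sampling noise, and all 4 were kept as separate libraries.

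**Figure D1:**
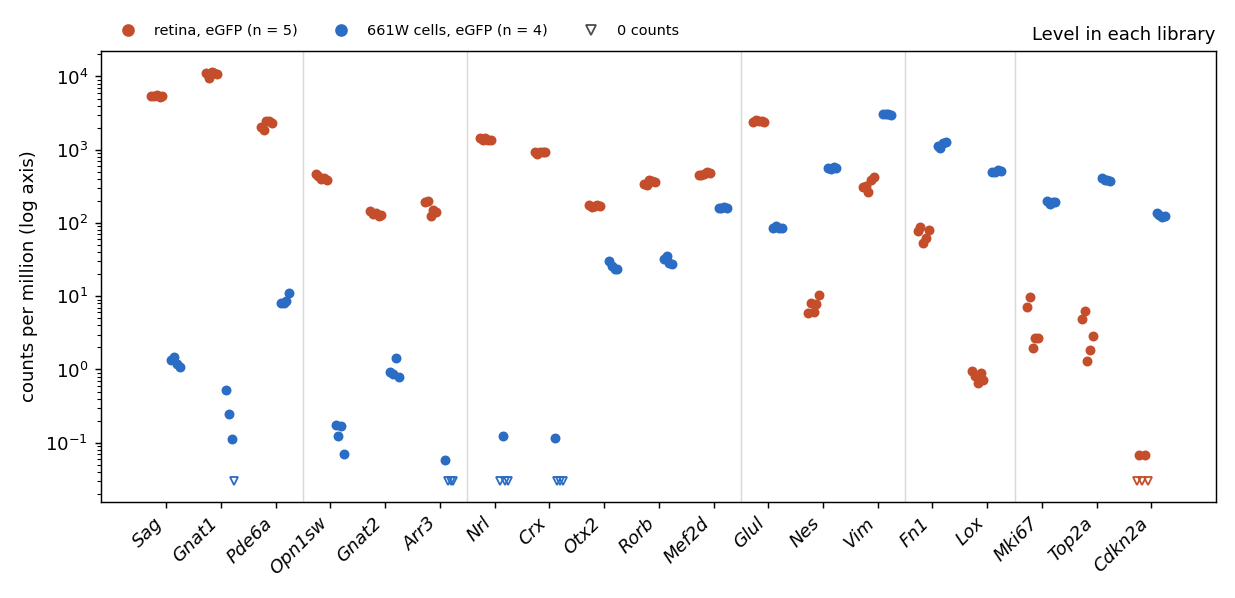
Level of 19 genes in each of the 9 libraries, in CPM on a log axis (red, 5 retina libraries; blue, 4 cell libraries; open triangles, libraries with 0 counts, drawn at the foot of the plot). Rod and cone genes lie lower in the cells by orders of magnitude, *Otx2*, *Rorb* and *Mef2d* by much less, and matrix and mitosis genes lie higher in the cells.

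All 20 genes of rod phototransduction were called higher in the retina, against 45.7% of all genes tested. The median log2FC was 13.13 as fitted, and 12.59 when genes with 0 counts in the cells were set to the bound that 3 counts allow and genes with 1 to 3 counts to the ratio of counts. The list took 6.30% ± 0.250 (SD, n = 5) of all counts in the retina and 0.0598% ± 0.000459 (SD, n = 4) in the cells. In the cells 97.7% of its level was *Gnb1*, a G protein β subunit that is not confined to photoreceptors.

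Rod transducin α, *Gnat1* (GRCm39 chr9:107551673-107556911, minus strand), had 11064, 9614, 11598, 11048 and 10945 CPM in the retinas and 9, 4, 2 and 0 counts in the cells. The groups were far apart, and the highest cell library was that of replicate 1. Its log2FC was 15.89 ± 0.59 (SE, limma adjusted *p* = 4.3e-11). The phosphodiesterase inhibitory subunit *Pde6g* had 1699 CPM in the retina and 2 counts in all 4 cell libraries together, and recoverin, *Rcvrn*, had 1084 CPM and 1 count. The guanylate cyclase *Gucy2f* had no count in any cell library and was at least 1282-fold higher in the retina (floor of 3 counts per library). Only *Gnb1*, *Pde6a* and *Sag* of the 20 reached 1 CPM in all 4 cell libraries. Rod arrestin, *Sag*, had 23, 24, 21 and 15 counts in the cells, between 1.07 and 1.5 CPM, against 5450 ± 147 CPM (SD, n = 5). *Pde6a*, a catalytic subunit of the rod phosphodiesterase, had 8.0, 7.99, 8.63 and 11.1 CPM in the cells against 2218 ± 276 in the retina, whereas its partner subunit *Pde6b* had 5, 4, 1 and 2 counts. *Pde6a* was thus the member of the cascade, beside *Gnb1*, that every cell library held clearly, while 8 of the 20 genes had at most 3 counts in each cell library. In a fit with no filter on low counts 15 of the 20 were called, and *Gnat1*, *Gnb1*, *Sag* and *Pdc* were among those that missed the threshold. *Gnat1* then had a limma adjusted *p* of 0.731 at a log2FC of 15.79. The cause was not tested.

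The cone genes showed the same picture. All 12 listed members were called higher in the retina, against 45.7% of all genes tested. The median log2FC was 10.66 (9.26 with bounds), and no member reached 1 CPM in all 4 cell libraries. The list took 0.191% of the counts in the retina and 0.000244% in the cells. S opsin, *Opn1sw* (chr6:29376670-29388467, minus strand), had 467, 441, 401, 417 and 385 CPM in the retinas and 3, 2, 3 and 1 counts in the cells. M opsin, *Opn1mw*, had 93.5 to 118 CPM in the retinas and 0 counts in the cells, at least a 483-fold difference. Cone arrestin, *Arr3* (chrX:99649101-99662099, plus strand), stood at 195, 197, 123, 149 and 140 CPM in the retinas and had a lone count in the cells, in library 1, which gives a ratio of 10378 with a 95% counting interval from 1862 to 409926. Within the retinas *Arr3* was highest in libraries 1 and 2, the pair with *Xist* counts, and so were *Opn1sw* and the share of the whole cone list. The cone member with the highest CPM in the cells was *Gnat2*, cone transducin α, at 0.934, 0.874, 1.42 and 0.781 CPM against 133 ± 7.80 in the retina (log2FC 7.03 ± 0.21, limma adjusted *p* = 5.1e-12). *Gngt2*, its γ subunit, followed with 0.681 to 1.25 CPM.

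**Figure D2:**
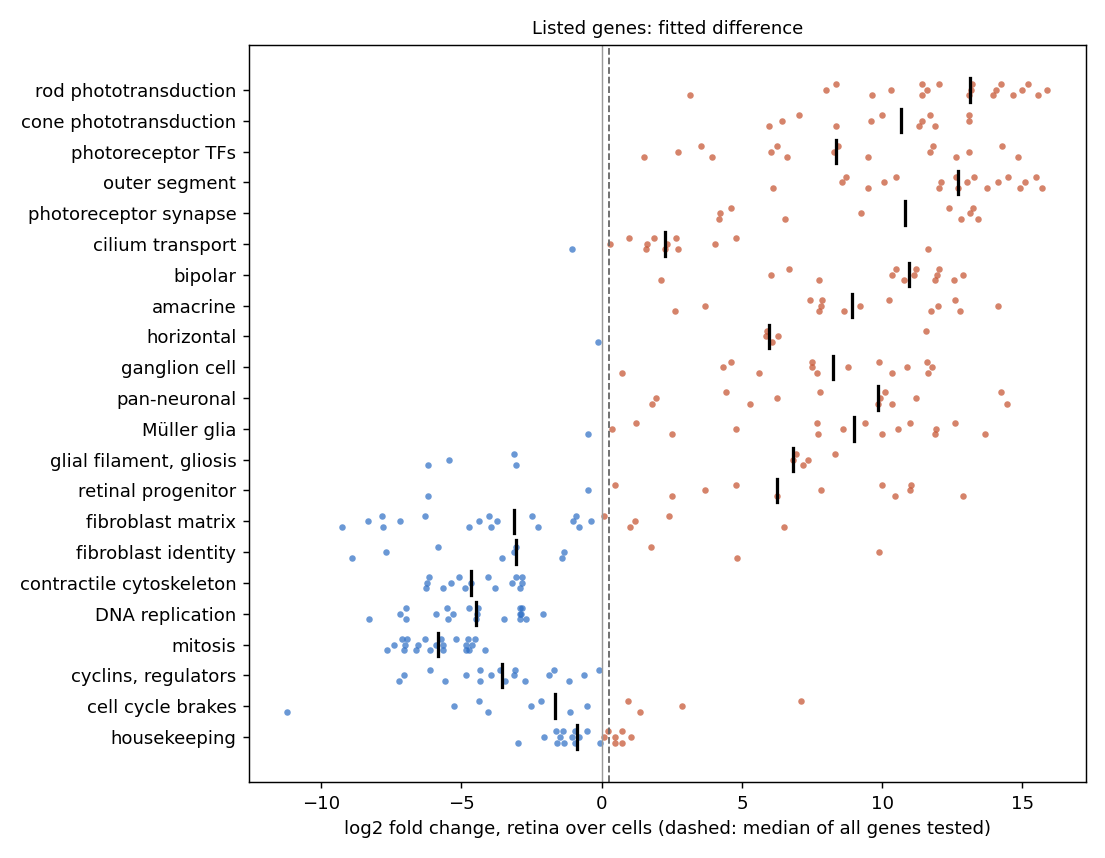
Fitted log2 fold change of each tested member of 22 gene lists (points; red above 0, higher in the retina; blue below 0, higher in the cells), with the median of each list as a black bar and the median of all genes tested, 0.26, as a dashed line. The rod, cone and outer segment lists have medians of 10.66 to 13.13, whereas the DNA replication and mitosis lists have medians of -4.46 and -5.82.

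The transcription factors of photoreceptors split into factors near or under the limit of detection in the cells and factors that the cells held at a lower level. All 16 were called higher in the retina, against 45.7% of all genes tested, with a median log2FC of 8.35 (6.44 with bounds). *Crx* (chr7:15599872-15613893, minus strand) had 931, 884, 921, 931 and 935 CPM in the retinas and 2, 0, 0 and 0 counts in the cells, a ratio of 29814 with a 95% counting interval from 8253 to 246185. *Nrl* (chr14:55756435-55762438, minus strand) had 1458, 1376, 1435, 1371 and 1343 CPM in the retinas and 0, 2, 0 and 0 counts in the cells, and *Nr2e3*, the nuclear receptor downstream of it, had 415 CPM on average and likewise 2 counts. *Neurod1*, a basic helix-loop-helix factor of photoreceptors, had 349 CPM and 2 counts. The cone-type receptor *Rxrg* and the zinc finger gene *Sall3* had none in the cells.

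*Otx2* (chr14:48894099-48911276, minus strand), which acts upstream of *Crx*, had 175, 166, 169, 175 and 172 CPM in the retinas and 30.2, 26.2, 23.4 and 23.8 CPM in the cells. Cell libraries 1 and 2 lay above 3 and 4, and all 4 lay below the retinas by a log2FC of 2.72 ± 0.07 (SE, limma adjusted *p* = 1.05e-12). *Rorb*, an orphan receptor needed for rod development, had 335 to 386 CPM in the retinas and 31.9, 34.9, 28.8 and 27.6 CPM in the cells (log2FC 3.54 ± 0.07). *Casz1*, a zinc finger factor of rods, had 264 to 315 against 17.5 to 21.3 CPM (log2FC 3.95 ± 0.08). *Mef2d*, a MADS-box factor that acts with CRX and is widely expressed, differed least, with 452 to 498 against 161 to 167 CPM (log2FC 1.53 ± 0.03). The fifth factor at 1 CPM or more in every cell library was *Samd7*, a rod gene silencer, at 1.05, 1.06, 2.95 and 2.34 CPM against 140 to 177. Unlike *Otx2* and *Rorb*, it was lower in cell libraries 1 and 2 than in 3 and 4. Per kilobase of exon, the level in the cells was 22.4 CPM for *Mef2d*, 5.75 for *Otx2*, 3.25 for *Rorb* and 2.2 for *Casz1*, and in the retina 64.5, 38, 38 and 33.3. *Thrb*, the thyroid hormone receptor of M cones, had 0.992 to 1.36 CPM in the cells against 77.6. With each library left out in turn, 16 of 16 were again called.

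The outer segment genes were called higher in the retina for all 19 members, against 45.7% of all genes tested. Their median log2FC was 12.69 (10.96 with bounds), and 5 of them had 0 counts in the cells. *Rbp3* (chr14:33675960-33686173, plus strand) had 4829, 4473, 4836, 5165 and 4929 CPM in the retinas and 4, 3, 0 and 0 counts in the cells. *Prph2*, which shapes the disc rims, had 4290 ± 176 CPM and 2, 6, 0 and 0 counts. Its partner *Rom1* had 1824 ± 62.8 CPM in the retina and was measurable in the cells at 4.61, 5.49, 4.94 and 4.05 CPM. So were the retinoid flippase *Abca4* with 3.44 to 4.12 CPM and *Unc119*, a carrier of lipidated proteins, with 22.4, 19.6, 16.5 and 16.1 CPM. For these 3 genes the log2FC was 8.57, 8.71 and 6.12. The interphotoreceptor matrix gene *Impg1* had no count in the cells and was at least 1994-fold higher in the retina.

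At the photoreceptor synapse, 10 of 10 listed genes were called higher in the retina, against 45.7% of all genes tested. The glutamate transporter *Slc17a7* had 1517 CPM and 3, 4, 5 and 5 counts, and the calcium channel *Cacna1f* had 370 CPM and a lone count. The syntaxin *Stx3* (38.8 ± 3.08 CPM in the cells, 954 ± 104 in the retina), the active zone genes *Rims2* (13.1 against 240) and *Bsn* (8.20 against 154) and the vesicle protein *Sv2b* (5.84 against 541) were at 1 CPM or more in all 4 cell libraries. Genes of the cilium, an organelle that dividing cells can build too, stood much closer. Of 13, 11 were called higher in the retina, with a median log2FC of 2.28, and 12 had 1 CPM or more in every cell library. *Rp2* was called higher in the cells (46.4 against 22.8 CPM, log2FC -1.04 ± 0.07), and *Rpgrip1l* was not called (23.7 against 29.3 CPM). Under housekeeping scaling *Rp2* stood at -0.39, which ends its call. *Rpgrip1*, the photoreceptor partner of RPGR, had 407 CPM in the retina and 3, 5, 0 and 1 counts in the cells.

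The promoters of photoreceptor genes are shown because CRX, whose transcript was near the limit of detection in the cells, and OTX2, whose transcript was held, recognise the same core, TAATCC. Promoter sequences are those of RefSeq on GRCm38.p6, and 27025 genes with 32851 promoters were searched on both strands over the 250 bases before the start. The core, whose reverse complement reads GGATTA, was held by 6.25% of all promoters, by 7 of 13 promoters of the rod list (53.8%), by 6 of 22 of the photoreceptor transcription factors, by 6 of 21 of the outer segment list and by none of 20 of the mitosis list. It was in 1 of 9 promoters of the cone list (11.1%) and in 4 of 8 of the retinal pigment epithelium (RPE) list (50%), so it did not follow the photoreceptor lists alone. The MAF and NRL motif TGCTGAC was in 3.81% of all promoters and in 1 of the 13 rod promoters. The rod list matched 13 of its 20 genes, and *Gnat1*, *Pde6a*, *Pde6g*, *Rcvrn*, *Guca1b* and *Rgs9bp* were among those not matched. A match describes letters only and is no evidence of binding. The promoters of *Crx* (chr7:15879956-15880205, minus strand), *Sag* (chr1:87803430-87803679, plus strand) and *Rbp3* (chr14:33953753-33954002, plus strand) are given from 5′ to 3′ on the strand of the gene, with matches on either strand to any of the searched motifs in capitals. *Crx* holds the core at 94 and at 21 bases before its start, beside a CCAAT box, *Sag* at 87 and *Rbp3* at 69. These genes had 2, 83 and 7 counts in all 4 cell libraries together.
Crx: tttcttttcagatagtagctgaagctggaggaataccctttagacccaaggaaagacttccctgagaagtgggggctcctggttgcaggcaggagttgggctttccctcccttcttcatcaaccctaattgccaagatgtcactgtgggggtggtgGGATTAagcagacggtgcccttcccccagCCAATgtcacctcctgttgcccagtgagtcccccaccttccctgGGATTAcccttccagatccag
Sag: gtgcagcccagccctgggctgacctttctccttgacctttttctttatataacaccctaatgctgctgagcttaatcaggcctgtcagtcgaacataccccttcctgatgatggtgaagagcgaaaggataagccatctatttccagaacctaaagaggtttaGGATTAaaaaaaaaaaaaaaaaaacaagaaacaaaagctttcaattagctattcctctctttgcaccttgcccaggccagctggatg
Rbp3: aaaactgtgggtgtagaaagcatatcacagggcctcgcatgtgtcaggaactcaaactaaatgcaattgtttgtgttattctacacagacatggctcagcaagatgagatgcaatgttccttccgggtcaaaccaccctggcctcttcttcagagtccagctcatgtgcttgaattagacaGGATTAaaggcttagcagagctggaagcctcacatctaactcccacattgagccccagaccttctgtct

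The small counts in the cells of genes abundant in the retina varied with the library. Over 23 listed genes at 1000 CPM or more in the retina and under 2 CPM in the cells, the counts summed to 93, 98, 48 and 31 in cell libraries 1 to 4. These genes come from several lists, and 4 are of the lens list. *Gnat1* had 0.205 CPM in the cells for every 10000 CPM in the retina, *Prph2* 0.286 and *Rbp3* 0.217. *Cryaa*, the αA-crystallin gene of the lens list, had 0.268, with 8, 7, 3 and 0 counts. *Xist* had 5, 4, 0 and 0 counts in the same libraries. *Sag* stood at 2.34, *Cdhr1* at 2.30 and *Slc17a7* at 1.75 for every 10000. The counts of *Cdhr1* were 7, 8, 4 and 2, higher in libraries 1 and 2 like the sum, whereas those of *Sag* and *Slc17a7*, given above, were more even. The part of RNA from the retina libraries in these counts was not tested.

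**Figure D3:**
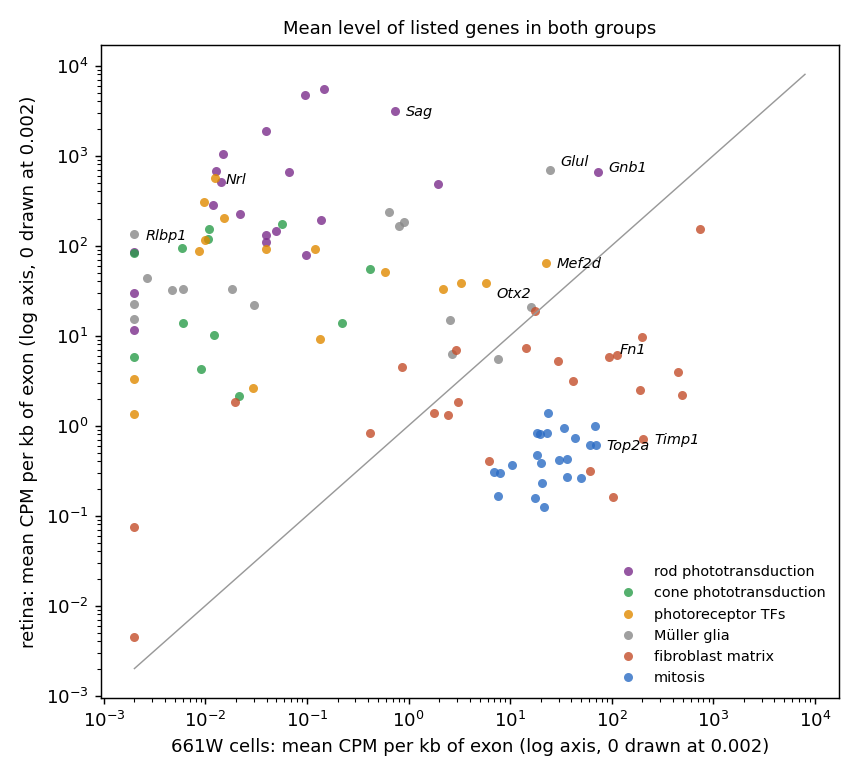
Mean level of listed genes per kilobase of exon in the cells (horizontal, log axis) and in the retina (vertical, log axis), 1 point a gene, with a mean of 0 drawn at 0.002 and equal levels on the grey line. Photoreceptor genes fill the upper left, with *Gnb1*, *Mef2d* and *Otx2* nearest the line, and the 22 mitosis genes lie below it on the right.

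Most listed genes of other retinal neurons were under 1 CPM in the cells. All 14 bipolar, 14 amacrine, 14 ganglion cell and 13 pan-neuronal genes were called higher in the retina, as were 5 of 6 horizontal cell genes. Of all genes tested 45.7% were. Of the bipolar list 6 genes, and of the amacrine list 8, had 0 counts in the cells, among them *Grm6*, the glutamate receptor of ON bipolar cells (185 CPM in the retina, at least 867-fold higher), and *Slc32a1*, the vesicular transporter of inhibitory neurons (106 CPM, at least 496-fold higher). *Prkca*, a kinase used as a rod bipolar marker and active in many cells, had 80.2 ± 5.63 CPM in the cells and 348 ± 13.4 in the retina. *Pax6*, an eye field factor that persists in amacrine and ganglion cells, had 23.5, 22.3, 21.6 and 23.4 CPM in the cells and 269 to 330 in the retina (log2FC 3.70 ± 0.09, limma adjusted *p* = 1.15e-12). The widely used neuronal genes *Map1b* (243 against 853 CPM), *Ncam1* (98.5 against 377), *Map2* (27.1 against 584) and *Eno2* (16.6 against 646) were measurable in the cells at a lower level. The synaptic genes *Snap25* and *Syt1*, at 1563 and 1203 CPM in the retina, had 4 and 3 counts in the cells altogether. *Onecut2*, listed for horizontal cells, was not called, with 9.27 ± 0.728 CPM in the cells and 8.61 CPM in the retina (limma adjusted *p* = 0.266). *Slc6a9*, of the amacrine list, had 35.5 CPM in the cells and 219 in the retina. The ganglion cell gene *Isl2* differed little, with 3.30 against 5.62 CPM (log2FC 0.73). *Pou4f1* of the same list had 1.68 against 34.4 CPM, and the horizontal cell gene *Prox1* had 3.80 against 221.

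Müller glia, the radial glia of the retina, were represented by 16 genes. Of these 14 were called higher in the retina and none higher in the cells (median log2FC 9.0, 8.17 with bounds). Of all genes tested 45.7% and 35.4% were. *Rlbp1*, the cellular retinaldehyde-binding protein, had 431, 374, 477, 391 and 376 CPM in the retinas and no count in the cells, at least 1924-fold. *Kcnj10* and *Sox2* also had none, and *Aqp4*, the water channel of the end feet, had 2. Glutamine synthetase, *Glul*, had 2389, 2512, 2475, 2433 and 2374 CPM in the retinas and 86.7, 89.8, 84.8 and 84.7 CPM in the cells (log2FC 4.81 ± 0.03). Together with *Sox9* (11.1 against 25.9 CPM, log2FC 1.23 ± 0.09), *Lhx2* (8.63 against 50.2 CPM), *Apoe* (3.23 against 672 CPM), *Clu* (2.81 against 1049) and *Dkk3* (6.12 against 1261), it reached 1 CPM in all 4 cell libraries. The members called in neither direction were the peroxiredoxin *Prdx6* (102 against 133 CPM) and the Notch target *Hes1* (23.8 against 17 CPM). The direction of *Hes1* turned under housekeeping scaling, and *Prdx6* was called higher in the retina there (log2FC 1.03).

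Of 9 genes of glial filaments and gliosis, 5 were called higher in the retina and 4 higher in the cells. Of all genes tested 45.7% and 35.4% were, so this split alone says little about the list. Vimentin, *Vim*, the intermediate filament of glia, fibroblasts and many cultured cells, was the fifth most abundant transcript of the cells with 3057, 3085, 3044 and 2988 CPM, against 314, 318, 266, 386 and 424 in the retinas (log2FC -3.13 ± 0.09, limma adjusted *p* = 4.4e-12). Nestin, *Nes*, a filament of progenitors, had 549 to 588 CPM in the cells and 7.69 ± 1.86 in the retinas (log2FC -6.19 ± 0.12). The hyaluronan receptor *Cd44* had 354 ± 16.4 against 42.5 ± 9.98 CPM. *Pax2*, a factor of the optic stalk and of the astrocytes that come from it, had 29.2, 27, 30.8 and 33.4 CPM in the cells and 0.393 to 1.31 in the retinas (log2FC -5.42 ± 0.26). The other 5 genes, among them *Gfap*, were higher in the retina. *Gfap*, the astrocyte filament that reactive Müller glia switch on, had 27.7, 41.6, 36.3, 40.7 and 79.5 CPM in the retinas and 4, 1, 1 and 2 counts in the cells. Of the retinal progenitor genes, 10 of 13 were called higher in the retina, *Nes* was called higher in the cells, and *Hes1* and *Notch1* (33.8 against 47.8 CPM) were not called. *Rax* and *Six6*, factors of the optic vesicle and retinal progenitors, had 1 and 0 counts in the cells. *Hes5* had none, with 7.08 CPM in the retina.

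The fibroblast-like genes stood mostly on the side of the cells. Of 22 tested matrix genes, 16 were called higher in the cells (35.4% of all genes tested were), 4 higher in the retina and 2 in neither, with a median log2FC of -3.11. The list took 1.04% ± 0.0655 (SD, n = 4) of the counts in the cells and 0.0921% ± 0.00755 (SD, n = 5) in the retina. Fibronectin, *Fn1*, had 1140, 1069, 1239 and 1273 CPM in the cells against 52.6 to 89.2 (log2FC -4.02 ± 0.11, limma adjusted *p* = 2.9e-12). The crosslinking enzyme *Lox* had 492 to 521 CPM against 0.646 to 0.958 (log2FC -9.25 ± 0.17), and the protease inhibitor *Timp1* had 393 against 1.37. Biglycan, *Bgn*, had 536 against 7.01 CPM.

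The fibrillar collagens did not move as a block. *Col3a1* had 364 ± 30.4 CPM in the cells and 1.87 in the retina, and *Col5a1* 356 against 26.7. *Col1a1* had 40.6, 41.3, 30.7 and 34.3 CPM in the cells and 2.41 in the retina (log2FC -3.95 ± 0.23). *Col1a2*, whose product assembles with that of *Col1a1* into type I collagen, was called higher in the retina, with 21.2 to 33.7 CPM against 5.37, 5.43, 3.92 and 4.90 in the cells (log2FC 2.40 ± 0.19, limma adjusted *p* = 7.7e-08). The fibroblast proteoglycans *Dcn* and *Lum* had 0 counts in the cells. *Col6a1* was not called, and its direction turned without scaling. Among fibroblast identity genes, 8 of 11 were called higher in the cells and 3 higher in the retina, beside 35.4% and 45.7% of all genes tested. The mesenchymal factors *Twist1* (22.6 to 24.4 CPM in the cells, 1 count in all 5 retinas), *Twist2* (13.1 CPM, 3 counts) and *Snai2* (27.1 against 0.470 CPM) stood on the side of the cells. *Thy1*, a surface glycoprotein of fibroblasts and of retinal ganglion cells, had 201 to 238 CPM in the retinas and 4, 8, 2 and 1 counts in the cells. *Pdgfra* was also higher in the retina (27.9 against 8.22 CPM), and *Tcf21* was not detected in either group.

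All 15 contractile and cytoskeletal genes were called higher in the cells, with log2FC between -6.27 and -2.84 and a median of -4.66. Smooth muscle actin, *Acta2*, had 447, 400, 404 and 416 CPM in the cells against 17.7 to 35.6, galectin 1, *Lgals1*, had 1156 against 23.1, and transgelin, *Tagln*, had 193 against 2.53. *Cspg4*, the NG2 proteoglycan of pericytes and glial precursors, had 134, 140, 207 and 214 CPM in the cells and 2.56 to 3.43 in the retinas. The mural list, of pericytes and vascular smooth muscle, held calls in both directions, as did all genes tested (35.4% higher in the cells and 45.7% in the retina). Of 9 genes 5 were called higher in the cells, namely *Acta2*, *Cspg4*, *Pdgfrb* (log2FC -1.35), *Notch3* (-1.43) and *Des* (-2.07), and 4 higher in the retina, namely *Myh11* and *Rgs5*, with 18 and 6 counts in the cells, and *Kcnj8* and *Abcc9*, with none. Epithelial genes were low, and of 8 listed none reached 1 CPM in all 4 cell libraries.

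**Figure D4:**
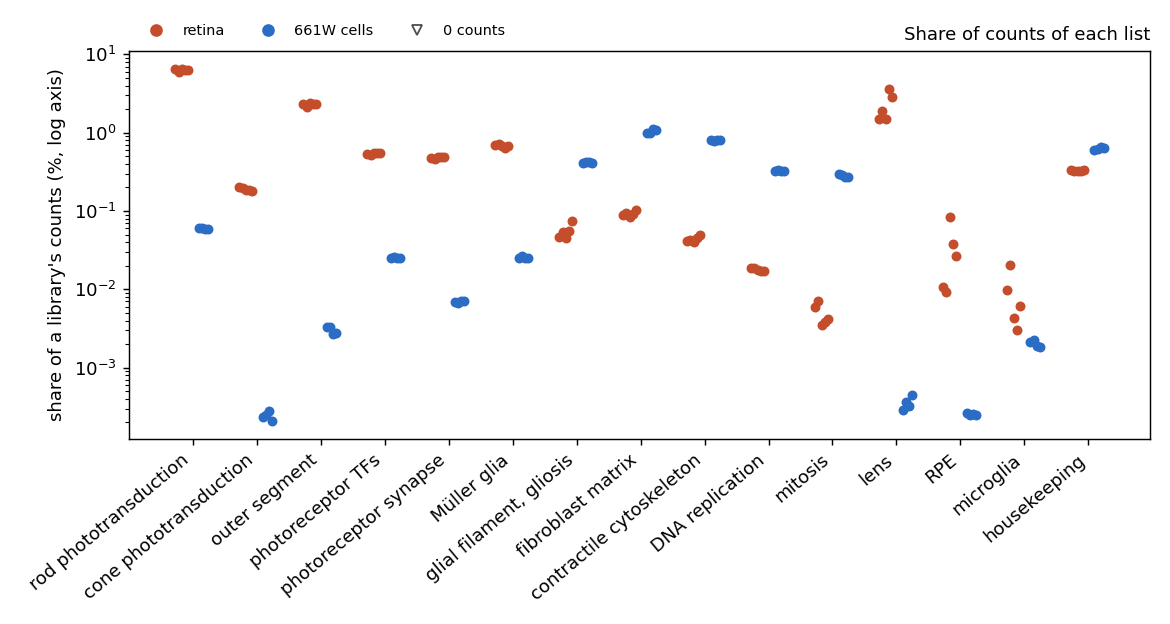
Share of all counts of a library, in percent on a log axis, that fell on each of 15 gene lists (red, 5 retina libraries; blue, 4 cell libraries). The cell libraries lie close together in each list, and the retina libraries spread most for the lens, retinal pigment epithelium (RPE) and microglia lists.

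The genes of cell division also stood on the side of the cells. All 20 DNA replication genes and all 22 mitosis genes were called higher in the cells, with medians of -4.46 and -5.82, and 17 of 18 cyclins and cell cycle regulators likewise (median -3.54). Of all genes tested 35.4% were called higher in the cells. The mitosis list took 0.283% ± 0.0131 (SD, n = 4) of the counts in the cells and 0.00489% ± 0.00151 (SD, n = 5) in the retina, a ratio of 57.9. *Mki67*, the gene of the Ki-67 proliferation antigen, had 197, 181, 193 and 192 CPM in the cells and 7.03, 9.83, 1.94, 2.69 and 2.67 in the retinas (log2FC -5.64 ± 0.28, limma adjusted *p* = 5.8e-10). Topoisomerase IIα, *Top2a*, had 380 to 407 CPM in the cells and 4.95, 6.26, 1.29, 1.86 and 2.83 in the retinas. The kinase of mitotic entry, *Cdk1*, had 187, 181, 191 and 173 against 0.966 to 2.42 CPM. The helicase subunit *Mcm4* had 351 against 16.3 CPM, and *Rrm2*, which makes deoxynucleotides, had 256, 250, 393 and 380 against 1.14. The retina libraries with the highest *Mki67*, *Top2a* and *Aurkb* were 1 and 2, which were also the highest for microglial genes (*C1qa* at 15.8 and 34.1 CPM, against 3.31 to 10.1 in the other 3). The part of microglia in the retinal level was not tested. *E2f3* was not called (30.3 against 28.5 CPM), and the smallest called difference was that of *Ccnd1*, at 58.4 against 37.6 CPM, whose direction turned under housekeeping scaling.

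Of 12 genes listed as brakes of the cycle, 8 were called higher in the cells and 4 higher in the retina, beside 35.4% and 45.7% of all genes tested. The 8 include *Mdm2* (133 against 59.2 CPM), whose product inhibits p53 and is no brake itself. Its log2FC was -1.14, and -0.49 under housekeeping scaling, which ends its call. *Cdkn2a* (chr4:89192708-89212890, minus strand), which encodes p16INK4A and p19ARF, had 136, 128, 121 and 125 CPM in the cells and 2 counts in the 5 retinas together, a ratio of 4471 with a 95% counting interval from 1237 to 36924. *Trp53*, the gene of p53, had 285, 288, 262 and 243 CPM in the cells and 11.3 to 15.9 in the retinas (log2FC -4.35 ± 0.11, limma adjusted *p* = 1.4e-12). *Cdkn1a*, the p53 target p21, had 158, 160, 272 and 270 CPM in the cells, so that libraries 3 and 4 lay above 1 and 2, and 4.39 to 5.99 in the retinas. *Rb1*, the retinoblastoma gene, was lower in the cells, at 8.99, 8.43, 10.3 and 9.23 CPM against 65.8 to 69.0 (log2FC 2.86 ± 0.07), and *Cdkn1c* had 15 counts in the cells against 33.9 CPM. *Cdkn1b* and *Rbl2* were the others higher in the retina. *Cdkn2d* was called higher in the cells by a narrow margin (log2FC -0.52), and its direction turned under housekeeping scaling.

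Motifs known from cell cycle promoters were counted in the same way. The CCAAT box of NF-Y was in 33.9% of all promoters and in 17 of 20 promoters of the mitosis list (85.0%), the element TTTGAA (CHR) in 16% and in 7 of 20, and the E2F motif TTTNNCGC, with CC, GG, CG or GC in the middle, in 1.86% of all, in 6 of 18 of the DNA replication list and in none of the mitosis list. The NF-Y motif was also in 7 of 8 promoters of the RPE list (87.5%), in 10 of 13 of the cilium list (76.9%) and in 5 of 13 of the rod list, and CHR was in 6 of 17 of the bipolar list (35.3%), so neither was particular to the division lists. *Cdk1* (chr10:69352913-69353162, minus strand) and *Cdc20* (chr4:118437344-118437593, minus strand, GRCm38.p6), the activator of the anaphase-promoting complex, are shown because each holds CHR and NF-Y motifs within the last 80 bases before the start, *Cdk1* beside an E2F motif at 131. Their levels were 183 and 115 CPM in the cells and 1.48 and 1.14 CPM in the retina. *Cdk1* is on the list of cyclins and regulators and not on the mitosis list. Of the 15 promoters of that cyclin list 8 held the NF-Y motif (53.3%), 4 CHR (26.7%) and 3 E2F (20%). Capitals mark the motifs.
Cdk1: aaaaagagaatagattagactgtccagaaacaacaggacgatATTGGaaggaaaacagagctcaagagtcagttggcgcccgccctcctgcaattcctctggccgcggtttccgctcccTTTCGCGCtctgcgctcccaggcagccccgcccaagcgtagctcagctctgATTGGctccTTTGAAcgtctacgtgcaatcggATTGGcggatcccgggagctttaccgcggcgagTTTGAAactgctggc
Cdc20: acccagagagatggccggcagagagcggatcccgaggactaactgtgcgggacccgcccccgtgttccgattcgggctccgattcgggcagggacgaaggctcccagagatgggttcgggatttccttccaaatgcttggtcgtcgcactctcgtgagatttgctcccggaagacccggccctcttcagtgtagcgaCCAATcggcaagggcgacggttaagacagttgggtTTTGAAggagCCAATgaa

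**Figure D5:**
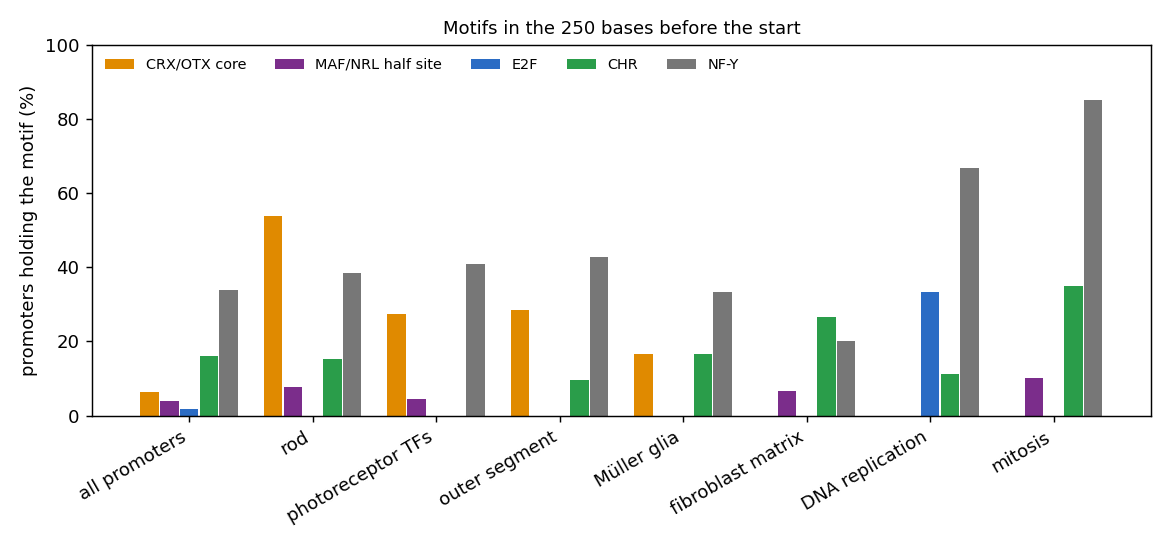
Share of promoters, in percent, that hold each of 5 motifs on either strand in the 250 bases before the start, for all 32851 promoters and for 7 gene lists (bars, 1 colour a motif). The CRX/OTX core stands at 53.8% in the rod list and 6.25% in all promoters, and the NF-Y motif at 85.0% in the mitosis list and 33.9% in all promoters.

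The 15 genes with the largest differences towards the cells, among those of 50 CPM or more, were *Ankrd1*, *Serpinb2*, *Msln*, *Cdkn2a*, *Ccl5*, *Fosl1*, *Selp*, *Plaur*, *Hoxc13*, *Vmn2r79*, *Oasl1*, *Dynap*, *Serpinb9b*, *Fat2* and *Slfn8*. *Ankrd1*, a gene of stretched and cultured mesenchymal cells, had 391, 373, 482 and 452 CPM in the cells and 2 counts in the retinas. The chemokine *Ccl5* (553 ± 13.1 CPM, SD, n = 4) and the interferon-induced genes *Oasl1* (699 ± 42.2) and *Slfn8* (188 ± 7.21) were even across the cell libraries, and in the retinas they were highest in libraries 1 and 2 (*Oasl1* at 5.27 and 2.16 CPM, against 0.0786 to 0.452). The class I histocompatibility gene *H2-D1* was among the 15 genes with the highest CPM in the cells, at 2154 to 2344, and had 224, 725, 60.1, 45.2 and 58.7 CPM in the retinas. *Hoxc13*, a posterior homeobox gene, had 69.1 CPM in the cells and 2 counts in the retinas. *Selp*, P-selectin, had 112, 113, 245 and 232 CPM and separated cell libraries 1 and 2 from 3 and 4. The plasmid transfection was common to all 4 cell libraries, and its part in these levels cannot be told apart from that of the line.

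The 15 genes with the highest CPM in the retina were, beside mitochondrial and ribosomal RNAs, *Gnat1*, *Cryaa*, *Sag*, *Gnb1*, *Rbp3*, *Crybb2* and *Prph2*, among others. The crystallins *Cryaa* and *Crybb2* are members of the lens list. This list took 1.48%, 1.91%, 1.5%, 3.58% and 2.89% of the counts of retina libraries 1 to 5 and at most 0.000447% in the cells. The RPE list took 0.0106%, 0.00911%, 0.0851%, 0.0377% and 0.0268%, with *Rpe65* at 2.90 to 131 CPM, and the microglia list 0.00305% to 0.0205%. Thus the retina libraries held unequal amounts of RNA of these lists, and *Cryaa*, *Cryba1*, *Crybb2* and *Crygs* were among the 15 largest differences towards the retina. Whether the crystallin RNA came from lens tissue or from cells of the retina was not tested. Without the lens, RPE and blood genes, 20 rod, 12 cone, 14 Müller glia, 16 matrix, 20 DNA replication and 22 mitosis genes were called, as with them. Leaving genes out keeps the counts of all others, so this fit does not test the part of RNA from other tissues. Members of the γ-crystallin and hemoglobin families are near-identical, and reads may be split between them.

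Of 10 genes of the hypoxia pathway, which the study manipulates, 5 were called higher in the retina, near the 45.7% of all genes, 2 higher in the cells and 3 in neither direction, with a median log2FC of 0.38 against 0.26 for all genes. *Hif1a* had 724, 685, 729, 666 and 685 CPM in the retinas and 147, 144, 155 and 155 CPM in the cells (log2FC 2.21 ± 0.04, limma adjusted *p* = 1.4e-13), and *Epas1*, which encodes HIF2A, had 151 to 154 against 13.9, 13.2, 8.80 and 8.24 CPM. *Hif3a* had no count in the cells and 6.45 CPM in the retina. Of the partners and regulators, *Vhl* and the prolyl hydroxylase *Egln1* were called higher in the retina, and *Arnt*, *Egln2* and *Hif1an* in neither direction. *Arnt2* (log2FC -0.74) and *Egln3* (-0.70) were called higher in the cells, but stood at -0.10 and -0.05 under housekeeping scaling, which ends both calls. Of 20 housekeeping genes, 12 were called higher in the cells and 3 higher in the retina, beside 35.4% and 45.7% of all genes tested. Their median log2FC was -0.86. *Polr2a*, among the 12, had a log2FC of -0.53 and turned to 0.12 under housekeeping scaling. The factors of that scaling come from these 20 genes themselves, so a turn of a member is partly fixed in advance. *Reep5* and *Vps29* were not called, and their sign also turned with the scaling.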

How the data were processed

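Polyadenylated RNA of retinas and 661W cells that had received eGFP was sequenced in 5 and 4 stranded paired-end libraries. The authors used Rsubread for alignment to GRCm39 and strand-aware featureCounts with the gencode M36 basic annotation, and deposited whole-number counts per gene in a table for each tissue. The tables were joined by Ensembl identifier, and 78168 of 78239 genes were matched to gencode M39 for positions and exon lengths. Samples were grouped by their titles.

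Genes were filtered with filterByExpr of edgeR 4.0.16 (minimum count 10), which left 19731, and scaled by TMM. Differences were fitted with voomWithQualityWeights and limma 3.58.1 in R 4.3.3 on the 9 libraries, and *p*-values were adjusted by the Benjamini-Hochberg method. A gene was called at an adjusted *p* under 0.05 and an absolute log2FC over 0.5. Levels between genes are per kilobase of exon, except in ranks and lists by CPM, which take no account of length. In a gene with 0 counts in a group the fold is a lower bound against 3 counts per library, and with 1 to 3 counts a ratio of summed counts with a 95% Poisson interval. On simulated counts with the same composition in both groups but for 200 changed genes, 100% of these were recovered with 7 false calls among 19062 genes. In the real groups most genes differed, so these rates do not carry over to them. Totals were between 12898220 and 17051276 counts. Alternatives were other scalings, filters, thresholds, tools (edgeR, DESeq2 1.42.0), sets of libraries and a replicate block. Tissue differs together with delivery, strain and culture, so no batch could be separated from it.

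The members and lists were chosen with earlier results of these data known. Named are members of the lists, the 15 genes with the highest CPM in each group, the 15 with the largest log2FC in each direction among called genes that did not overlap and had 50 CPM or more in the higher group, and listed retinal genes at 1 CPM or more in all 4 cell libraries. *Xist*, the Y chromosome genes and the promoters printed were named after values were seen. A few listed genes are not reported here by name.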

Additional observations from a re-analysis of the deposited data

Results flagged for a closer look

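In 70 groups of 4 or 5 libraries, the highest or lowest library was tested for a gap to the others by Dixon's criterion, and 4 were set apart. For continuous values chance alone sets apart about 1 group in 20. *Crx* in retina library 2 was at 883.969 CPM, against 920.759 to 934.528 in the other retinas. Genes of fibroblast identity took 0.377906% of the counts of cell library 2, against 0.368808% to 0.370107% in the other cell libraries. In cell library 1 *Crx* was at 0.116734 CPM and *Arr3* at 0.0583671 CPM, and both were at 0 in the other cell libraries, so these values rest on 2 counts and 1 count. A group with counts in 1 library only is always set apart by this criterion.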

How the results depend on the processing

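Under another scaling, filter, threshold, tool or set of libraries, 297 of 300 counts of calls stayed within 1.5 times the reported count. With no filter on low counts 14560 genes were called higher in the retina, and beyond a log2FC of 2 there were 5749 higher in the retina and 2760 higher in the cells. With 1 library left out at a time, between 8696 and 9402 genes were called higher in the retina and between 6834 and 7111 higher in the cells, and the rod, cone, transcription factor, outer segment, Müller glia, matrix, DNA replication and mitosis lists gave the reported counts each time. The log2FC lay between 14.71 and 17.14 for *Gnat1*, 13.70 and 14.93 for *Crx*, 11.15 and 12.65 for *Opn1sw* and 11.51 and 13.13 for *Arr3*, and was past the threshold throughout except for *Gnat1* with no filter (15.79). Of 120 list medians under other scalings 45 moved and none turned. Housekeeping scaling moved that of the mitosis list to -5.19 and that of the matrix list to -2.46, and left 13 of 16 matrix calls.

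Retina and cell libraries share replicate numbers, but the numbers are not those of shared animals or cultures, and the deviations of libraries with the same number correlated at 0.0045 to 0.013 only. With the number as a block, 8997 genes were called higher in the retina and 6904 higher in the cells, and the 8 lists gave the reported counts. The sets of retina libraries 1 and 2 and of 3 to 5, chosen after seeing the data, gave 8991 and 8981 genes higher in the retina. Depth limits a gene with no count to between 0.170 and 0.240 CPM in a library.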
